A study of Mus musculus with 5 samples.

Results

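Resting small pre-B cells were examined in whole BM from untreated (naive) mice, from D2 CTX mice, taken on day 2 of treatment, and from D7 CTX mice, taken on day 7. A cell was taken as a member when it held at least 2 unique molecular identifiers (UMIs, single captured transcripts) of Cd79a and at least 1 of Rag1, none of Mki67, Top2a and Ms4a1, and at most 2 of Vpreb1 and Igll1 together. The members were thus chosen by the measured levels of these 7 genes, which are described below but support no comparison. Of 21520 cells that passed the filter on cells in the 3 whole BM libraries, 619 were members: 360 of 7104 in naive BM, 230 of 6126 in D2 CTX BM and 29 of 8290 in D7 CTX BM. The series as a whole held 25975 such cells in 5 libraries. Naive BM came from untreated mice. Treated mice received 1 intraperitoneal dose of 150 mg/kg cyclophosphamide (CTX), an alkylating agent that damages DNA. Their BM was taken 2 or 7 days later. All were BALB/c mice of 4 to 8 weeks, and each library pooled equal numbers of BM cells from 3 mice after red cell lysis and removal of dead cells. With 1 library per condition there was no replicate and no test, so intervals below are 95% intervals for counting error only and leave out differences between mice, poolings and library preparations. At day 7 the members were few, and day 2 was therefore the main comparison.

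Small pre-B cells are the stage of B cell development in BM between the dividing large pre-B cell and the immature B cell. They have rearranged an immunoglobulin heavy chain gene, have left the cell cycle, have turned off the surrogate light chain encoded by Vpreb1 and Igll1, and use the recombinase of RAG1 and RAG2 to join V and J segments first at the kappa and then, in a minority of mouse cells, at the lambda light chain locus. CD79A is the signalling partner of the pre-B and B cell receptors, and MS4A1 (CD20) appears on later B cells. These cells survive on IL-7 and stromal contact, and a failed or harmful light chain is followed by further rearrangement or by death through BIM and related proteins.

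The median depth per member was alike in the 3 libraries, while the deepest members held 15341 (naive), 26984 (D2 CTX) and 8782 UMIs (D7 CTX). The deepest D2 CTX member held 0 UMIs of the lambda constant genes and 1 of Igkc. The median member held 2433 UMIs and 1246.5 genes in naive, 2305 UMIs and 1280 genes in D2 CTX and 2134 UMIs and 1207 genes in D7 CTX BM. Summed over members this gave 970670, 597298 and 72518 UMIs, and levels are given as counts scaled to a common total (CPM, counts per 1e+06 UMIs). The assay counts each captured transcript once at its 3′ end, so that no value was divided by transcript length. Cycling B lineage cells of naive BM were larger in this measure, with a median of 7687 UMIs. No barcode was shared between members of different libraries, and 6 to 15 barcodes were shared among all kept cells of any pair of libraries. In sorted CD11b+Ly6Chi monocytes of naive and CTX-treated mice, where no pre-B cell should be, the same rule found 0 of 1891 and 0 of 2564 cells, which allows shares of up to 0.159% and 0.117%.

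The markers matched the label. All 15 markers of pre-B cells, of which Rag1 and Cd79a belong to the rule, had at least 67 UMIs in naive members. Besides the genes of the rule, naive members expressed Ighm, the heavy chain of IgM, at 7441 CPM, the B lineage factor Ebf1 at 6105 CPM, Vpreb3 at 3989 CPM, the adaptor Blnk at 662 CPM, the B cell factor Pax5 at 657 CPM and the IL-7 receptor gene Il7r at 542 CPM. Markers of earlier stages were low: Dntt, the terminal transferase of pro-B cells, stood at 46.4 CPM, against 1193 CPM in cells rich in surrogate light chain, and Kit at 2.06 CPM. Markers of later B cells were not all low. The 11 markers of immature and mature B cells summed to 1492 CPM in naive, 603 CPM in D2 CTX and 1489 CPM in D7 CTX members, with Cd74 the most abundant, and the MHC class II genes among them are described below. Cr2 stood at 4.12 CPM and Fcer2a at 1.03 CPM in naive members, while the Ms4a1-positive cells of the same library held 117 and 179 CPM of them. Jchain of plasma cells stood at 28.8 CPM, and Tnfrsf17 had 0 UMIs in all members.

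Among genes with at least 50 UMIs in naive members, those of the rule set aside, the 10 with the highest ratio to all remaining naive cells were Il2ra, Reln, Col5a3, Myzap, Rbm24, Uchl1, Gm49085, 4930597A21Rik, Cacna1e and Atp1b1. Il2ra encodes CD25, the IL-2 receptor chain by which small pre-B cells are often sorted, and stood at 190 CPM in members against 8.71 CPM in the rest, 4.29 log2 units higher with 1 CPM added. Reln, which encodes the secreted glycoprotein reelin, stood at 126 against 5.97 CPM. Atp1b1, a subunit of the sodium pump, stood at 1755 against 125 CPM. These ratios describe cells that were selected on other genes of the same cells and were not tested. In D2 CTX members the same genes were all detected, with Il2ra at 288, Reln at 353 and Atp1b1 at 1997 CPM, and in D7 CTX members all but Gm49085 were.

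Of all kept cells, members made up 5.07% (4.57 to 5.603) of naive BM. The share was 3.75% (3.29 to 4.26) at day 2 and 0.350% (0.234 to 0.502) at day 7. The log2 ratio to the naive share was -0.43 (-0.68 to -0.19) at day 2 and -3.86 (-4.46 to -3.31) at day 7. A share of sequenced cells does not give a number of cells per mouse. Among the B lineage cells around them the sizes of the shifts were unlike. Cycling cells with Cd79a went from 10.3% to 2.25% at day 2, cells rich in Vpreb1 and Igll1 from 2.08% to 1.55%, Rag1-negative resting cells from 4.25% to 2.15%, and Ms4a1-positive cells from 7.38% to 18.8%. All cells with at least 2 UMIs of Cd79a together made up 29.1% of naive and 28.5% of D2 CTX BM, so that within them the members were 17.4% (15.8 to 19.1) and 13.2% (11.6 to 14.8). At day 7 only 2.77% of cells held Cd79a, and members were 12.6% (8.61 to 17.6) of them.

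**Figure D1:**
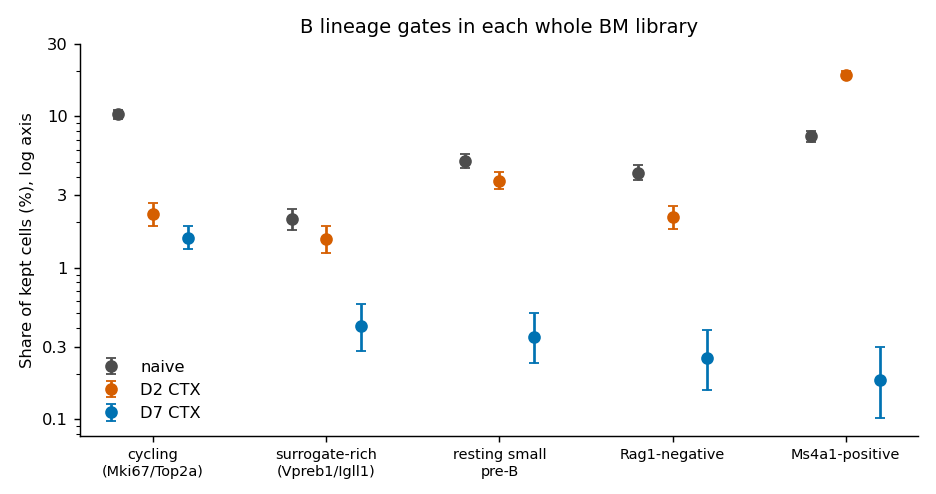
Share of kept cells (%, log axis) in 5 gates of Cd79a-positive cells for naive, D2 CTX and D7 CTX BM; points are shares and bars are exact 95% binomial intervals for counting error. Resting small pre-B cells stood at 5.07%, 3.75% and 0.350%, cycling cells already at 2.25% on day 2, and Ms4a1-positive cells at 18.8% on day 2 and 0.181% on day 7.

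Cells lay on both sides of each limit of the rule. With all other limits met, 302 naive cells had no Rag1 UMI, 156 had 1 and 103 had 2, while at D2 CTX these numbers were 132, 77 and 49. At the limit on Cd79a, 10 naive cells had 1 UMI and 30 had 2, and at D2 CTX 19 had 1 and 22 had 2. At the limit on surrogate light chain, 5 naive cells lay just inside with 2 UMIs of Vpreb1 and Igll1 and 9 just outside with 3. Just outside the limit on Mki67 and Top2a, 27 naive and 11 D2 CTX cells held 1 UMI. Just outside the limit on Ms4a1, 18 naive and 44 D2 CTX cells held 1 UMI. The median member held 2 UMIs of Rag1 and 6 of Cd79a in each library. Summed over members, Rag1 stood at 802, 1046 and 883 CPM and Cd79a at 2340, 2310 and 2592 CPM in naive, D2 CTX and D7 CTX BM.

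Transcripts of other cell types were present in members and moved between the libraries. S100a8 and S100a9, the most abundant transcripts of neutrophils, had a median of 5, 11 and 10 UMIs together per member in naive, D2 CTX and D7 CTX BM. Most of their UMIs sat in few members, with 86.0% in 11 naive members, 82.0% in 23 D2 CTX members and 91.6% in 1 D7 CTX member that each drew at least 2% of their UMIs from the pair. The 9 neutrophil markers summed to 19911, 28040 and 65239 CPM with S100a9 the most abundant in naive members. Among them Retnlg was called higher at day 2 and Camp, Ltf, Elane and Mpo lower, where 3.5% of all genes were called higher and 1.66% lower. Without doublets Retnlg stood at 0.82 log2 units, under the limit. With at least 2 UMIs of Rag1 asked of a member, Camp (1.76) and Ltf (2.95) were higher instead. The 7 erythroid markers, led by Hbb-bs, summed to 1818, 544 and 55.2 CPM. A single cell held 41.7% of the hemoglobin UMIs of naive members and another 74.9% of those of D2 CTX members. The ratio of Hbb-bs was -1.75 at day 2 and -3.03 with the highest cell of each library left out, but 0.71 with at least 2 UMIs of Rag1, where Hba-a1 (0.57), Hba-a2 (1.39) and Hbb-bt (0.999) were above 0 too. The 8 T cell markers summed to 22.7, 56.9 and 82.7 CPM, and Cd3e, Cd3g, Trac and Cd4 had 0 UMIs in naive members. The 5 NK markers summed to 16.5, 11.7 and 13.8 CPM with Nkg7 the most abundant and Ncr1 and Gzma at 0 in naive members, and the 7 monocyte and macrophage markers to 108, 53.6 and 138 CPM with Ly6c2 the most abundant and Adgre1 at 0. The 5 plasmacytoid dendritic cell markers, led by Cox6a2, summed to 70.1, 63.6 and 345 CPM, with Siglech at 0 in naive members. The part of these transcripts in the results below was not tested, beyond the levels of each gene in T cells and in neutrophils of the same libraries and the values without the members rich in S100a8 and S100a9.

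Across 4711 genes with at least 50 UMIs over both libraries and at least 20 CPM in 1 of them, the genes of the rule left out, 165 were higher in D2 CTX members by at least 1 log2 unit with 1 CPM added, which is 3.5% of the genes compared, and 78 were lower, which is 1.66%. The median gene was 0.12 log2 units higher at day 2. Scaled by the median of the gene ratios, which takes this shift away, the counts turned to 108 higher and 126 lower, so that higher genes were 46.2% of those called in place of 67.9%. Many of the genes with the largest ratios were abundant in other cells. Ifitm1 (10.3 to 98.8 CPM), the chemokine receptor genes Ccr1 and Cxcr2, the histidine decarboxylase gene Hdc, Cxcl2 and F630028O10Rik were all at higher levels in neutrophils than in members of the same library, and Inpp4b was so in T cells. Gm42047, a gene model, went from 15.5 to 117 CPM in members and from 18.2 to 88.7 CPM in T cells. Gm10076, named by its gene model only, went from 58.7 to 392 CPM in members, and from 72.7 to 755 CPM in T cells. At the other end, Ctsg, Prtn3 and Olfm4 were genes of the neutrophil lineage, with Prtn3 at 144 and 15.1 CPM in members and at 291 and 18.7 CPM in neutrophils. Olfm4 turned to 1.16 with called doublets removed.

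A second count was therefore restricted to genes whose level in members, in the library where it was higher, was at least 2 times that in T cells and in neutrophils of that library. This limit was set after values had been seen, and a gene could meet it through the library where it was high. Fchsd2, Clic4 and Itpr3, for example, met it at day 2 but were under 2 times the level of T cells in naive BM. The counts therefore describe the set and cannot be read against those over all genes. Of 1065 such pre-B-enriched genes, 51 were higher (4.79%) and 27 lower (2.54%) at day 2, so that 65.4% of those called were higher. Scaled by the median of gene ratios, 1016 genes met the limit, and 30 of them were higher and 47 lower, so that 39.0% of those called were higher. That scaling changed both the ratios and the genes in the set. The highest ratios belonged to Fchsd2, Itgb3, Whrn, Clic4, Itpr3, Iglc2, Asph, Camkk2, Reln and Gpatch2l. The lowest belonged to Rsph1, H2-Aa, H2-Eb1, Cd74, H2-Ab1, B3gnt2, Insig1, Dnttip1, Borcs7 and Bfsp2. Fchsd2, which encodes a membrane-bending protein of endocytosis, went from 75.2 to 308 CPM, or 2.03 log2 units (1.64 to 2.45), and after thinning to 1500 UMIs was detected in 10.1% of naive and 32.9% of D2 CTX members. Itgb3, an integrin chain, went from 20.6 to 78.7 CPM, and the inositol trisphosphate receptor gene Itpr3 from 20.6 to 68.6 CPM. Reln went from 126 to 353 CPM (log2 ratio 1.49, 1.16 to 1.82). Rsph1, which encodes a protein of the radial spokes of cilia, went from 52 UMIs in naive to 1 UMI in D2 CTX members, a log2 ratio of -5.00 (-10.33 to -2.46), and in Ms4a1-positive cells Rsph1 stood at 15.7 and 2.42 CPM.

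**Figure D2:**
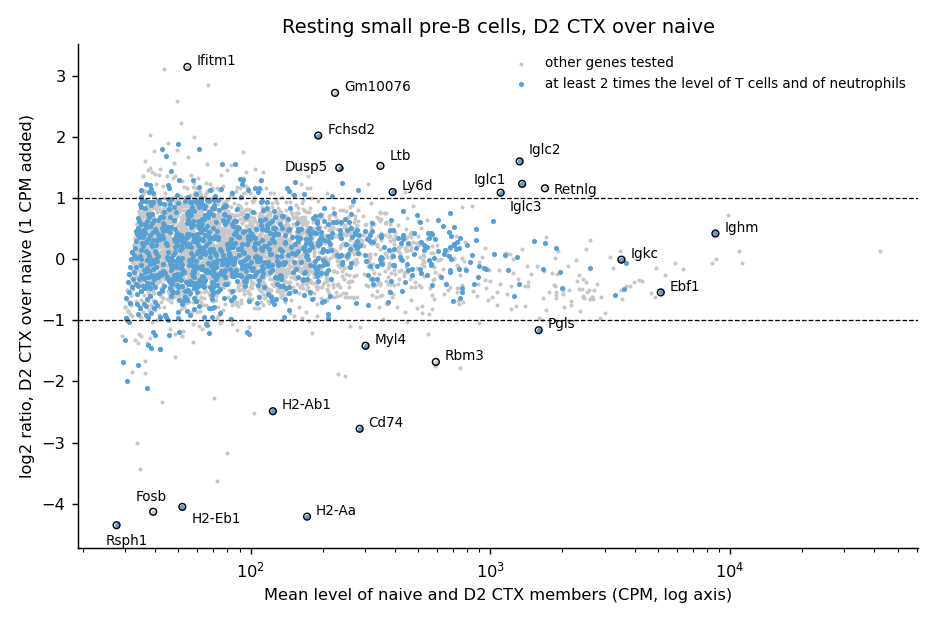
Each point is 1 of 4711 genes in resting small pre-B cells, with the mean level of naive and D2 CTX members (CPM, log axis) against the log2 ratio of D2 CTX over naive with 1 CPM added; blue points are the 1065 pre-B-enriched genes, circled points are named, and dashed lines mark 1 log2 unit. The 4 MHC class II genes lie from -2.49 to -4.21 and the 3 lambda constant genes from 1.09 to 1.60, while Igkc lies at -0.01.

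The lambda light chain genes were higher in D2 CTX than in naive members, and kappa was not. The 3 lambda constant genes lie on chromosome 16 (mm10, GENCODE M21), Iglc1 at chr16:19061618-19062071, Iglc3 at chr16:19065230-19065681 and Iglc2 at chr16:19198396-19200351, all on the minus strand, and the kappa constant gene Igkc at chr6:70726435-70726966 on the plus strand. Iglc2 went from 658 CPM to 1994 CPM at day 2 and stood at 496 CPM at day 7. Iglc1 went from 812 to 1905 CPM and stood at 2013 CPM at day 7. Iglc3 went from 708 to 1503 CPM and stood at 1103 CPM at day 7. Of 11 genes of immunoglobulin chains and surrogate light chain 8 were compared, with 3 called higher at day 2 and 0 lower. Among all genes 3.5% were called higher and 1.66% lower. The 3 called were these lambda constant genes, by 1.60 (1.46 to 1.74), 1.23 (1.10 to 1.36) and 1.09 (0.94 to 1.23) log2 units in the order given. The size depended on the setting for the last pair: with cells thinned to 1500 UMIs before the rule Iglc1 stood at 0.58 and Iglc3 at 0.67, as the mean of the cells' CPM at 0.89 and 0.91, and Iglc3 alone at 0.96 scaled by the median of gene ratios and at 0.88 with at least 2 UMIs of Rag1, while Iglc2 stood at 1.24 or more in every alternative. As the constant genes are near copies of each other, reads may be split among them, and their sum is the safer measure: 2178, 5403 and 3613 CPM, 1.31 log2 units (1.23 to 1.39) higher at day 2. Igkc was level, at 3535 CPM before treatment, 3511 CPM at day 2 and 2882 CPM at day 7, a log2 ratio at day 2 of -0.01 (-0.09 to 0.07).

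The shift in lambda was spread over the members. A naive member held a median of 1 lambda UMI with quartiles of 0 and 6, and a D2 CTX member a median of 12 with quartiles of 6 and 19. The medians for Igkc were 8 and 7 UMIs. With every member thinned to 1500 UMIs, which left out 15 naive and 5 D2 CTX members, lambda was detected in 54.5% (49.1 to 59.8) of naive and 92.0% (87.7 to 95.2) of D2 CTX members. In T cells, which should hold none and whose median depths were 2726 and 3130 UMIs, the shares were 0 of 120 cells in naive BM, which allows up to 2.50%, and 1.32% at day 2. Igkc was detected in 89.3% and 91.6% of members, and in 27.5% and 24.7% of T cells. More lambda than kappa was found in 22.03% (17.8 to 26.8) of naive members and 60% (53.3 to 66.5) of D2 CTX members, more kappa than lambda in 71.6% and 34.2%, and neither in 4.35% and 0.889%. The V genes of the same loci, where a transcript marks a joined or a germline V segment, were too sparse to follow this shift. Lambda V genes summed to 22 UMIs in naive and 21 UMIs in D2 CTX members, or 22.7 and 35.2 CPM (log2 ratio 0.63, -0.30 to 1.56), and kappa V genes to 129 CPM in both. The 3′ assay often misses the V segment, and few V UMIs were counted. The other B lineage gates did not all move alike, which was looked at after the values of members were known. In cycling cells the lambda sum was higher at day 2, at 257 and 1202 CPM (log2 ratio 2.23, 2.14 to 2.31). The median cycling cell held 0 lambda UMIs in naive and 10.5 in D2 CTX BM. Without the highest cell of each library the log2 ratio was 2.27 (2.18 to 2.36). Markers of plasma cells were higher in that gate too, with a median of 1.57 over 4 genes and Jchain at 697 and 7648 CPM. Their part in the lambda ratio of cycling cells was not tested. Among Ms4a1-positive cells the lambda sum differed by 0.10 log2 units (0.06 to 0.14), at 5315 CPM before and 5695 CPM after treatment. Without the highest cell of each library the log2 ratio was 0.007 (-0.03 to 0.04), while the median cell held 9 and 14 lambda UMIs. In cells rich in surrogate light chain the lambda sum was 162 and 105 CPM. In Rag1-negative cells, which differ from members at the Rag1 limit only, it was lower at day 2, at 9257 and 3532 CPM (log2 ratio -1.39, -1.46 to -1.32). There 1 naive cell held 74.1% of the lambda UMIs. Without the highest cell of each library the levels were 2431 and 3493 CPM (log2 ratio 0.52, 0.43 to 0.61), and the median Rag1-negative cell held 2 and 11 lambda UMIs. Members and Rag1-negative cells summed together stood at 5640.5 and 4519 CPM (log2 ratio -0.32, -0.37 to -0.27), and without the highest cell of each library at 2301 and 4524 CPM (0.98, 0.92 to 1.03). Ighm was 0.42 log2 units (0.37 to 0.47) higher in D2 CTX members, at 9945 CPM.

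**Figure D3:**
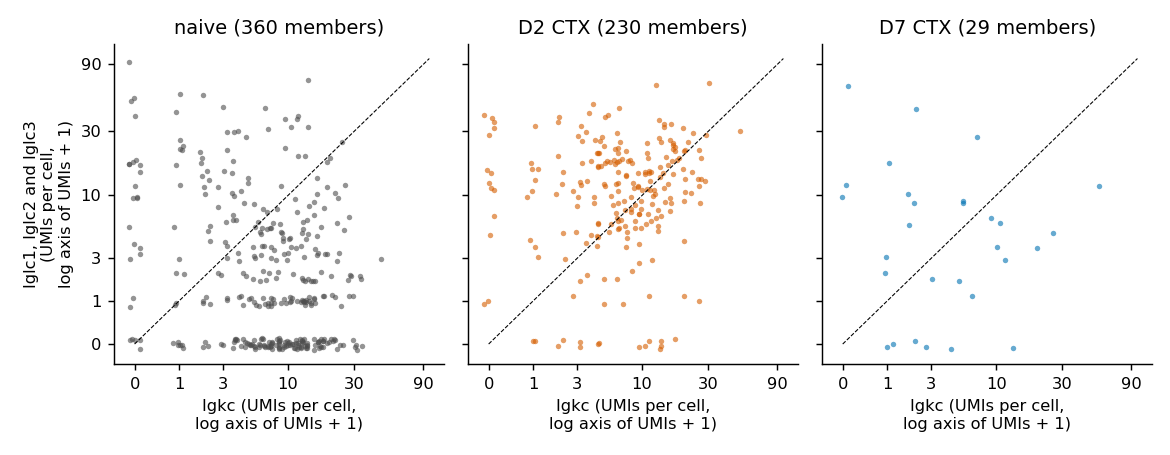
UMIs of Igkc (horizontal) and of Iglc1, Iglc2 and Iglc3 together (vertical) in each resting small pre-B cell, unthinned, on log axes of UMIs + 1 with a small random offset; the dashed line marks equal numbers. Naive members crowd along the lower edge with a median of 1 lambda UMI, and D2 CTX members lie around the line with a median of 12.

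MHC class II transcripts moved the other way. These genes encode the molecules that present peptides to CD4+ T cells, and in the B lineage they rise as cells mature. Of the 10 genes of the MHC class II list, 5 were compared, 4 were called lower at day 2 and 0 higher, where 1.66% of all genes were called lower and 3.5% higher, and the list median was -2.78 against 0.12 for all genes. H2-Aa, the alpha chain of I-A (chr17:34282744-34287823, minus strand), stood at 328 CPM before treatment, 16.7 CPM at day 2 and 179 CPM at day 7, a log2 ratio at day 2 of -4.29 (-5.36 to -3.39). H2-Ab1, its beta chain (chr17:34257689-34269419, plus strand), stood at 211, 36.8 and 331 CPM. H2-Eb1, the beta chain of I-E (chr17:34305867-34316674, plus strand), stood at 98.9, 5.02 and 110 CPM. Cd74, the invariant chain that escorts class II molecules, stood at 499, 71.99 and 496 CPM. The fifth gene, H2-Ob of the modulator H2-O, did not follow, at 106 and 117 CPM. Ciita, the coactivator on which class II transcription depends, was under the count minimum with 25 UMIs in naive and 2 UMIs in D2 CTX members, a log2 ratio of -2.94 (-6.07 to -0.94).

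A large part of this level came from 1 naive member. It held 418 of the 1103 UMIs of the 4 genes in naive members and 157 of their 705 UMIs of Cst3, a gene abundant in dendritic cells and monocytes, in a total of 15341 UMIs, and a doublet caller marked it. Without the highest member of each library the 4 genes summed to 717 CPM (664 to 773) in naive, 121 CPM (94.7 to 152) in D2 CTX and 247 CPM (144 to 396) in D7 CTX members, which made the log2 ratio at day 2 -2.57 (-2.94 to -2.22) in place of -3.12. At day 7 a single member held 64 of 81 UMIs. Over all members thinned to 1500 UMIs, 35.1% (30.04 to 40.4) of naive and 12.9% (8.80 to 18.0) of D2 CTX members had at least 1 UMI of the 4 genes, compared with 4.17% and 3.96% of T cells and 1.83% and 3.59% of neutrophils. The unthinned shares in members were 41.4% and 20.4%. At least 5 UMIs were found in 11.9% (8.78 to 15.8) of naive and 0.870% (0.105 to 3.11) of D2 CTX members. With called doublets removed, the log2 ratio was -3.66 for H2-Aa and -2.09 for Cd74. With cells thinned to 1500 UMIs before the rule was applied, the log2 ratio of Cd74 was -0.41 (-0.94 to 0.11). In that setting 8 of 184 D2 CTX members had been Ms4a1-positive before thinning, and they held 20 of the 48 Cd74 UMIs. The naive level was also lower in that setting, at 231 CPM, and without the formerly Ms4a1-positive cells the log2 ratio was -1.17 (-1.84 to -0.55). The ratios of the other 3 genes in that setting, with all members, were between -2.65 and -1.46.

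In naive BM the summed level of the same 4 genes climbed from gate to gate, and its difference between the days was not alike in all gates. Their sum stood at 194 CPM in naive cells rich in surrogate light chain and 1136 CPM in members, or 717 CPM without the highest member. It was 2826 CPM in Rag1-negative cells and 9049 CPM in Ms4a1-positive cells. In D2 CTX BM the sums over all cells of these gates, in this order, were 96.8, 131, 1745 and 5971 CPM. The intervals of the first 2, 68.2 to 133 and 103 to 163 CPM, overlapped. In Ms4a1-positive cells the log2 ratio was -0.60 (-0.63 to -0.57), and in cycling cells the sum was higher at day 2, at 1372 after 671 CPM. For MHC class I 12 of 14 genes were compared and 0 were called, which is near the background of 3.5% higher and 1.66% lower among all genes, with H2-K1 at 1125 and 1212 CPM and B2m at 1140 and 1204 CPM in naive and D2 CTX members.

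**Figure D4:**
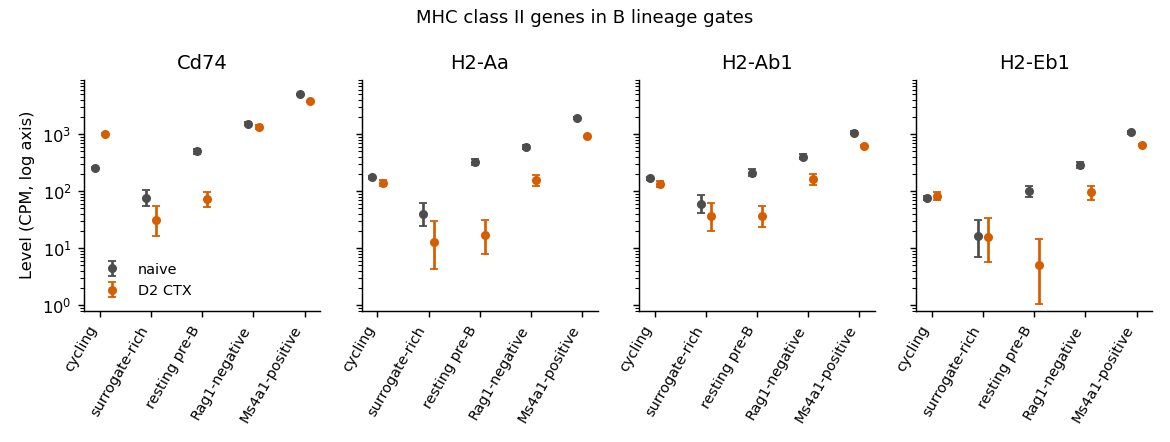
Levels (CPM, log axis) of Cd74, H2-Aa, H2-Ab1 and H2-Eb1 summed over the cells of 5 B lineage gates in naive and D2 CTX BM; bars are exact 95% Poisson intervals for counting error. In resting pre-B cells the D2 CTX points lie under the naive ones for all 4 genes, as with H2-Aa at 16.7 against 328 CPM.

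Of the 5 class II genes compared, 4 were called lower at day 2. The promoters of the 2 H2 genes among these 4 that the RefSeq table (GRCm38.p6) holds are shown. Class II promoters carry a conserved Y box, an inverted CCAAT motif bound by the factor NF-Y. The windows run from 250 bases before to 50 bases after the start of the gene, 5′ to 3′ on the strand of the gene, and the capitals mark the letters CTGATTGG, searched on both strands. H2-Aa is at chr17:34287774-34288073 on the minus strand and H2-Eb1 at chr17:34305617-34305916 on the plus strand.
H2-Aa: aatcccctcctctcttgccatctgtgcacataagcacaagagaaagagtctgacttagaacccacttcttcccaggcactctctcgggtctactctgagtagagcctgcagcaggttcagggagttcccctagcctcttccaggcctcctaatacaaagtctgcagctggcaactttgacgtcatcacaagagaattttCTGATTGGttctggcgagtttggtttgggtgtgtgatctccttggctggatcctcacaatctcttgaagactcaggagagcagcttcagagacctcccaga
H2-Eb1: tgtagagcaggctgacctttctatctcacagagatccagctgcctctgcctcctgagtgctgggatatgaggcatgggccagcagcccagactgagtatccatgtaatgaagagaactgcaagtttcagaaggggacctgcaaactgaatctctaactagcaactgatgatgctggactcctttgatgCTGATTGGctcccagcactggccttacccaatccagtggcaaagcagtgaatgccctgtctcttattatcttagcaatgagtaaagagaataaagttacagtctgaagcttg
Each window held 1 match, beginning 51 bases before the start of H2-Aa and 62 bases before that of H2-Eb1. Of all 32851 promoter windows in the table, 4.10% held these letters. A match is a description of the reference sequence, which is of another strain than BALB/c, and binding was not measured here.

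For recombination, receptor signalling and lineage factors the lists held 0 calls, where 3.5% of all genes were called higher and 1.66% lower, so that lists of this size would hold few at that rate. Of 15 genes of V(D)J recombination and end joining 8 were compared and 0 were called, with a median of -0.37. Rag2, the partner of Rag1, stood at 69.0 and 50.2 CPM in naive and D2 CTX members (log2 ratio -0.46, -1.13 to 0.18), and the ligase gene Lig4 at 139 and 114 CPM. Dclre1c, which encodes the nuclease Artemis that opens the hairpin ends, stood at 45.3 and 83.7 CPM. Of 20 genes of receptor signalling 17 were compared and 0 were called, with the kinase gene Syk at 774 and 963 CPM and Cd79b at 2103 and 1810 CPM. Of 26 B lineage transcription factors 24 were compared and 0 were called. Within them Ebf1 stood at 6105 and 4184 CPM, a log2 ratio of -0.55 (-0.61 to -0.48), and Irf4, a factor that promotes light chain rearrangement, at 249 and 154 CPM, a log2 ratio of -0.69. Foxo1, which drives Rag1 and Il7r, was 0.64 log2 units (0.40 to 0.88) higher, at 302 and 470 CPM. Vpreb3, which encodes a chaperone-like partner of the light chains, stood at 3989 and 2669 CPM. Pgls, an enzyme of the pentose phosphate pathway, and Myl4, a myosin light chain, were called lower, from 2202 to 983 CPM and from 440 to 164 CPM. Pgls stood between 130.1 and 180.4 CPM in T cells and neutrophils of these libraries.

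Genes of survival and of contact with the stroma are given with 3.5% of all genes called higher as their background, against which 1 call in a short list is no result about the list. Of 12 genes of the IL-7 receptor pathway 6 were compared and 1 was higher, Il2rg, the common cytokine receptor chain, at 46.4 and 102 CPM. Il7r stood at 542 CPM before treatment, 397 CPM at day 2 and 331 CPM at day 7. Of 17 genes of adhesion and homing 14 were compared, with a median of 0.42, and 1 was higher. This was Ly6d, a surface protein of committed lymphoid cells (chr15:74762056-74763620, minus strand), at 249, 534 and 400 CPM, or 1.10 log2 units (0.85 to 1.35) higher at day 2. Thinned to 1500 UMIs it was found in 18.3% (14.3 to 22.7) of naive and 38.7% (32.3 to 45.4) of D2 CTX members, and in 0.833% of naive T cells and 0 of 227 at day 2, which allows up to 1.32%. With at least 2 UMIs of Rag1 asked of a member its ratio was 0.76, and scaled by the median of gene ratios 0.97. The chemokine receptor gene Cxcr4, which holds B cell precursors in the marrow, stood at 507 and 584 CPM. Ltb, which encodes lymphotoxin beta, went from 179 to 517 CPM and was at 855 CPM in D7 CTX members, though T cells held 886 and 1109 CPM and neutrophils 327 and 464 CPM of it in naive and D2 CTX BM. Dusp5, a phosphatase of the ERK kinases that was picked after its values were seen, as were Ltb, Pgls, Myl4 and Rbm3, went from 123 to 347 CPM. Thinned to 1500 UMIs, Dusp5 was found in 14.8% of naive and 32.9% of D2 CTX members. It was more frequent at day 2 in other cells too: 7.86% and 15.6% of Ms4a1-positive cells, 12.5% and 22.5% of T cells, and 3.01% and 7.07% of neutrophils.

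The p53 targets, genes of the factor activated by DNA damage, held 1 call, which at 3.5% of all genes called higher and 1.66% lower says little of the list. Of 22 of them 10 were compared, 1 was called higher and 0 lower, and the median was 0.42 against 0.12 for all genes. Ccng1, which encodes cyclin G1, stood at 56.7 CPM before treatment, 131 CPM at day 2 and 13.8 CPM at day 7, a log2 ratio at day 2 of 1.20 (0.69 to 1.73). Bax, a pore-forming protein of apoptosis, stood at 105 and 188 CPM. Bbc3, which encodes PUMA, had too few UMIs to be compared, 8 in naive and 34 in D2 CTX members, and was found after thinning in 0.870% (0.180 to 2.52) and 9.33% (5.87 to 13.9) of them. Bbc3 was found in 0.393% and 5.56% of Ms4a1-positive cells, 4.17% and 6.61% of T cells, and 1.22% and 1.27% of neutrophils. The median over the same 10 genes was 0.79 in Ms4a1-positive cells, 0.83 in T cells and 0.51 in neutrophils, where all genes compared had medians of 0.14, 0.15 and 0.20. It was 0.67 in cycling cells, 0.32 in cells rich in surrogate light chain and 0.21 in Rag1-negative cells. All genes compared had medians of -0.16, 0.05 and -0.28 there. Of 17 genes of the BCL2 family 7 were compared and 1 was called (3.5% of all genes were higher), Bcl2l11, which encodes BIM, at 31.9 and 73.7 CPM (log2 ratio 1.21, 0.51 to 1.92). Bmf, another killer protein of that family, stood at 105 and 188 CPM, 0.84 log2 units (0.44 to 1.24) apart, and Mcl1, a survival protein, at 394 and 504 CPM. After thinning, Bcl2l11 was found in 4.93% of naive and 8.44% of D2 CTX members. It was also more frequent at day 2 in Ms4a1-positive cells (2.55% and 6.63%), T cells (6.67% and 12.3%) and neutrophils (0.987% and 3.26%).

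Genes of the cell cycle and of quiescence were followed next, with the same background of 3.5% higher and 1.66% lower, at which 0 calls are near what any lists of this size would hold. Of 28 genes of the cell cycle other than those of the rule, 12 were compared and 0 were called, with a median of -0.01, and Pcna stood at 33.0 and 46.9 CPM in members against 275 CPM in naive cycling cells. Of 12 genes of quiescence under FOXO factors 10 were compared and 0 were called, with Btg1 at 1862 and 1880 CPM and the inhibitor gene Cdkn1b at 255 and 387 CPM. Immediate early genes were mixed, with Ier5 and Dusp1 called higher and Fosb lower of 11 compared. Fosb had 73 UMIs in naive, 2 UMIs in D2 CTX and 35 UMIs in D7 CTX members, or 75.2, 3.35 and 483 CPM. Jun stood at 915, 588 and 1944 CPM and Jund at 2326, 1671 and 3792 CPM. Of 9 genes that respond to glucocorticoids 5 were compared and 1 was called higher, Dusp1, which is also an immediate early gene. Its ratio of 1.17 log2 units fell under the limit with cells thinned to 1500 UMIs before the rule (0.72) and without members rich in S100a8 and S100a9 (0.98).

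Interferon-stimulated genes had the highest median of the 19 lists, 0.86 over 7 of 18 genes compared. Of the 7, 2 were called higher, beside 3.5% of all genes. Trim30a, which was 1 of them, stood at 60.8 and 164 CPM, a log2 ratio of 1.43 (0.95 to 1.92). Ly6e stood at 506 and 849 CPM and Ifi27l2a at 338 and 614 CPM. Over the same 7 genes the median was 0.23 in cells rich in surrogate light chain, 0.01 in Rag1-negative cells, 0.68 in Ms4a1-positive cells, 0.91 in cycling cells, 0.13 in T cells and 0.89 in neutrophils. At the other end, 82 of 85 ribosomal protein genes were compared and only 5 lay above 0, with a median of -0.51. Their sum was 172843 CPM in naive members, 124311 CPM at day 2 and 146253 CPM at day 7, and 4 of the 82, Rps27rt, Rpl27, Rpl36al and Rps18, were called lower, beside 1.66% of all genes. The median over these genes was -0.82 in Rag1-negative cells, -0.42 in cycling cells, -0.34 in cells rich in surrogate light chain and -0.30 in Ms4a1-positive cells. It was -0.68 in neutrophils and -0.08 in T cells. As ribosomal transcripts make up much of each total, a lower sum leaves a larger part of the total to all other genes. Rbm3, a cold-inducible RNA-binding protein, was lower in members (905 and 281 CPM), in T cells (695 and 369 CPM) and in neutrophils (226 and 129 CPM).

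**Figure D5:**
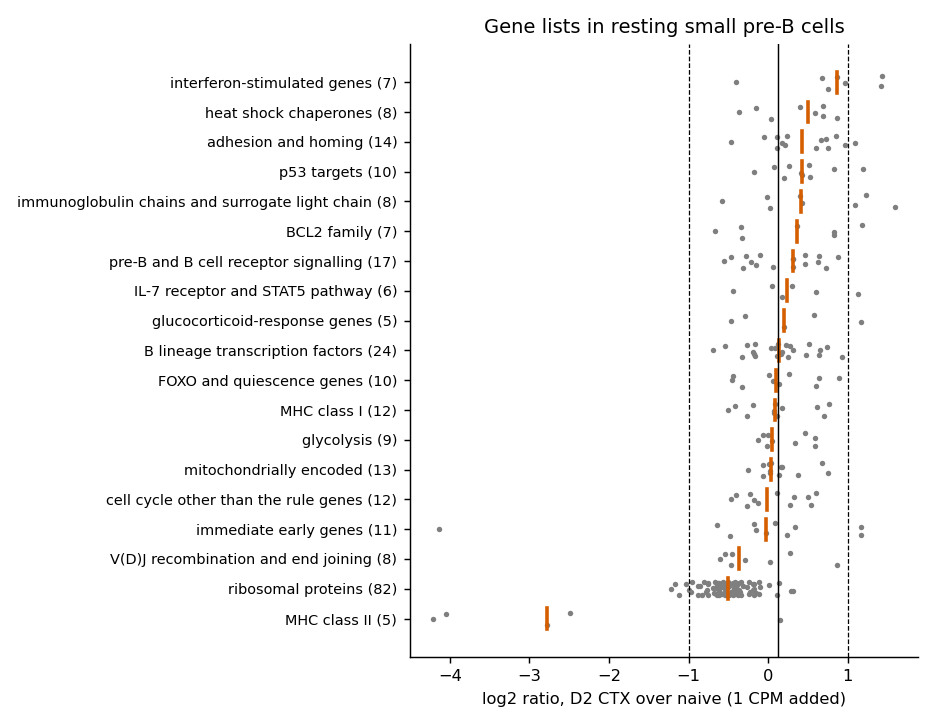
Log2 ratios of D2 CTX over naive with 1 CPM added in resting small pre-B cells for the genes compared in 19 lists, with their number in parentheses; grey points are genes, orange bars list medians, the solid line the median of all genes (0.12) and dashed lines 1 log2 unit. MHC class II (median -2.78) and ribosomal proteins (-0.51) lie lowest and interferon-stimulated genes (0.86) highest.

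The 29 members of D7 CTX BM allowed only rough values. A gene with 3 UMIs in them stood at 41.4 CPM. Ighm stood at 5999 CPM, Ebf1 at 4233 CPM and Il2ra at 179 CPM. The lambda sum was 0.73 log2 units (0.54 to 0.92) higher than in naive members, and 1 member held 23.3% of its UMIs. Without the highest cell of each library the lambda sum was 0.45 log2 units (0.23 to 0.66) higher. More lambda than kappa was found in 10 of 27 members after thinning, 37.0% (19.4 to 57.6). Ccng1 and Bbc3 had 1 UMI each.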

How the data were processed

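Single-cell RNA was measured by 10x Genomics 3′ V3 chemistry in 3 whole BM libraries and, used here only as a control for the rule, 2 libraries of sorted monocytes. The authors deposited raw UMI counts per gene and barcode, without normalization, and the submitters' processing notes name Cell Ranger 3.1, Seurat 5.0 and mm10. ATAC-seq and human samples were not analysed here. Whole BM libraries held 47086837 (naive), 34764874 (D2 CTX) and 68459527 (D7 CTX) UMIs in 7649, 6608 and 8605 barcodes.

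A barcode was kept when 200 or more genes were detected and mitochondrial transcripts (symbols starting mt-) took under 20% of its UMIs. Doublets were left in. As an alternative, the top 0.8% per 1000 barcodes by Scrublet score (scanpy 1.11.5) were removed, 17 naive, 13 D2 CTX and 1 D7 CTX members. Cells with at least 2 UMIs of Cd79a fell, in this order, into cycling (Mki67 or Top2a), Ms4a1-positive, surrogate-rich (over 2 UMIs of Vpreb1 and Igll1), member and Rag1-negative cells. T cells had no Cd79a and at least 1 UMI of Cd3e and of Trbc1 or Trbc2. Neutrophils had no Cd79a, at least 2% of UMIs from S100a8 and S100a9, and no Mki67 or Top2a.

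UMIs were summed over cells of a gate. Shares have Clopper-Pearson, levels Poisson and log2 ratios exact conditional intervals at 95%, all for counting error only. For 0 cells, 3 cells of the total give the upper limit. Calls used at least 1 log2 unit with 1 CPM added. Quoted ratios with an interval have nothing added. Shares of members with a UMI were taken after thinning members to 1500 UMIs. Named genes were the members of the fixed lists, the 10 highest and 10 lowest ratios (immunoglobulin V genes, chromosome Y genes and Xist left out, markers of other cell types given apart) and the 10 leading genes of members. The highest and lowest pre-B-enriched genes were added. Members, lists and rules were chosen with earlier results of these data known. Counting steps were tested on simulated data. Python 3.11.15, numpy 2.4.6, scipy 1.17.1, pandas 2.3.3 and matplotlib 3.10.9 were used, with gene positions from GENCODE M21 and promoters from RefSeq. The values of 1 gene of the interferon list are not reported here.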

Additional observations from a re-analysis of the deposited data

How the results depend on the processing

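No paired analysis was possible because each condition had 1 pooled library. The log2 ratio of the share of members at day 2 was -0.43, and -0.16 with cells thinned to 1500 UMIs before the rule. Over non-cycling cells with Cd79a, a denominator added after seeing the data, it was -0.92. At day 7 it was -3.86, but -0.47 over cells with Cd79a and 0.12 over non-cycling cells with Cd79a. Genes called higher and lower numbered 165 and 78, and 51 and 27 when pre-B-enriched. In the same order they numbered 71, 35, 25 and 10 after thinning, 108, 126, 30 and 47 scaled by the median of gene ratios, 27, 17, 14 and 5 with at least 200 UMIs, and 1894, 1904, 735 and 951 with no filter. With the highest cell of each gene left out they numbered 142, 104, 40 and 34, so that higher genes were 57.7% of those called among all genes. With at least 2 UMIs of Rag1, 51 genes were lower. Of 19 lists, 3 had a median at least 0.5 from that of all genes, and 5 did with at least 200 UMIs. Among named genes called at day 2, the direction reversed for Olfm4 (1.16 without doublets, 1.71 without members rich in S100a8 and S100a9), Ltf (0.19 after thinning) and, with at least 2 UMIs of Rag1, Camp (1.76), Ltf (2.95), Hba-a1 (0.57), Hba-a2 (1.39), Hbb-bs (0.71) and Hbb-bt (0.999). Genes not called there changed sign as well, among them Ngp (-0.52, and 2.75 with at least 2 UMIs of Rag1), Lcn2 (-0.42 and 1.59), Ly6c2 (-0.95 and 0.94) and Ifitm3 (-0.41, and 1.35 without doublets). The causes were not tested. Of 3042 values of 234 named genes under 13 alternatives, 2 of them added after seeing the data, 2894 stayed within the counting interval of the main value. Of 247 medians of the 19 lists under the same alternatives, 163 moved by no more than the counting error of the list's summed UMIs and 84 moved further. After thinning, only 36 of the 165 higher genes were called again among 2416 compared. Depth limited genes under about 20 CPM, and all values at day 7.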

Other observations

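Of 11 heat shock chaperones 8 were compared in resting small pre-B cells, with a median log2 ratio of 0.49 and 0 called, which is near the background of 3.5% higher and 1.66% lower among all genes, as are the 0 calls in the lists that follow. Hspa8 stood at 0.87 and Hspa5 at 0.69, while Hspe1 stood at -0.37. Over the same genes the median was 0.59 in cells rich in surrogate light chain, 0.09 in Ms4a1-positive cells and 0.42 in T cells. Of 15 glycolytic genes 9 were compared, with a median of 0.05 and 0 called. The 13 mitochondrially encoded genes summed to 55883 CPM in naive and 55791 CPM in D2 CTX members, and 0 were called.

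In D7 CTX BM the 15 Ms4a1-positive cells held 81848 CPM of the 3 lambda constant genes, against 5315 CPM in naive BM, but 1 of them held 93.2% of these UMIs. Without the highest cell of each library the levels were 6821 and 5330 CPM, and the median D7 CTX cell held 22 lambda UMIs. The same 15 cells held 35516 CPM of Jchain, a gene of plasma cells.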
